A study of Mus musculus with 36 samples.

Results

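Ribosome biogenesis and RNA polymerase I (Pol I) genes were followed by RNA-seq in 20 mouse libraries. The 38 genes were taken by symbol from a list of nucleolar proteins, snoRNP proteins, Pol I components and assembly factors of both ribosomal subunits, and all 38 were present in each of the 3 deposited expression tables, which together hold 20960 gene names. KSIC_806 pancreatic ductal adenocarcinoma (PDA) cells labelled KO or WT for Rreb1, a gene for a zinc finger transcription factor, received TGFβ at 100 pM for 1.5 h or SB505124, which blocks the kinase of the type I TGFβ receptor, at 2.5 µM for 6 h. E14 embryonic stem cells labelled KO or WT were sampled as embryoid bodies (EBs) at day 4 and as stem cells at day 0. Organoids of pancreatic epithelial cells, labelled CIY, were grown with doxycycline (dox, 1 µg/mL from plating) or without it and received the same TGFβ or SB505124 treatment. Each PDA and EB group had 2 libraries, in 4 groups per table, and each of the 4 organoid conditions had 1 library.

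Several features of the design limit what the values can show. Because TGFβ was given for 1.5 h and SB505124 for 6 h, ligand and length of treatment cannot be told apart when they are compared. What dox induces in the organoids, and the meaning of the mark S4 in the PDA labels, are not given in the sources used here. Whether replicates were separate cultures is not given. A p-value here thus speaks of the spread between libraries of a group, which may be technical. Groups of 2 libraries can stand apart without any effect. Where groups do not overlap, this is given as a description, and the share of all genes like this was not counted. Separate lines or clones of a genotype are not given either, so that an effect of genotype and other differences between the lines cannot be told apart.

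Making a ribosome starts in the nucleolus, where Pol I copies the ribosomal DNA into a long precursor RNA. Box C/D and box H/ACA snoRNPs modify that RNA at many positions, one kind by methylation and the other by pseudouridylation, and a succession of assembly factors cuts and folds it into the small and the large subunit. The process takes a large part of the energy of a growing cell, and in mouse and human cells many of its genes are known targets of the transcription factor Myc, which binds the E-box CACGTG together with Max.

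By the RefSeq annotation of GRCm38.p6, the 38 genes lie on 17 chromosomes, with Npm3 (chr19:45747734-45749565) and Nolc1 (chr19:46075847-46085543) as near neighbours. Of the members, 7 (18.4%) held snoRNA genes inside their span, 20 in all, against 372 of 21900 protein-coding genes (1.7%). Nop56 held 5 of them, Nop58 held 4, Gnl3 and Wdr43 held 3 each, Ncl and Ppan 2 each and Dkc1 held 1. Another annotated gene overlapped 12 members (Nop56, Dkc1, Nhp2, Polr1a, Mybbp1a, Heatr1, Nop14, Bysl, Bop1, Wdr12, Noc2l and Gnl3), and since the library kit does not mark strand, reads from the shared stretch cannot be assigned to either gene.

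RefSeq promoter sequence, 250 bases before and 50 bases after the annotated start, was matched for 33 of the 38 members. The palindrome CACGTG, which reads the same on both strands, stood in a window of 7 of these 33 members (21.2%). Of all genes with a sequence, 2187 of 27025 held it (8.09%), as did 11.5% of the genes tested in either the PDA or the EB table. Among assembly genes outside the members, 27.6% of those for the small subunit and 16.1% of those for the large subunit held it. The members' matches are shown because Myc, followed below, is known to bind this E-box. A match is a description of letters, not a site. Rrn3, whose product brings Pol I to the ribosomal DNA promoter, held the motif at 2 places, 215 and 48 bases before the start (chr16:13780449-13780698, plus strand), and Nop2, a methyltransferase of the large subunit RNA, at 60 bases before it (chr6:125131633-125131882, plus strand). The 250 bases before each start follow, 5′ to 3′ on the plus strand, with CACGTG in capitals.
Rrn3: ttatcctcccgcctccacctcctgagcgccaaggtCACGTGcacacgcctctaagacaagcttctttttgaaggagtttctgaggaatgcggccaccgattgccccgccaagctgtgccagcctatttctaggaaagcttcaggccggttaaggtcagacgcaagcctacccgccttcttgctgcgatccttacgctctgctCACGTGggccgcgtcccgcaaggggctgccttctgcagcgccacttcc
Nop2: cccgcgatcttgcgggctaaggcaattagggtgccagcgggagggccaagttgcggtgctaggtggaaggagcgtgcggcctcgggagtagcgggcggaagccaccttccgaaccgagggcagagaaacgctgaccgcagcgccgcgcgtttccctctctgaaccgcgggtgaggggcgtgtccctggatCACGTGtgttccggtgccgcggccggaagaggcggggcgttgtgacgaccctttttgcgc
In the other 5 members the motif lay within the first 50 bases after the start. These stretches of 30 bases, on the strand of the gene, come from Pes1 (chr11:3963965-3963994, plus strand), Mybbp1a (chr11:72441347-72441376, plus), Wdr43 (chr17:71616220-71616249, plus), Nle1 (chr11:82908355-82908384, minus) and Utp20 (chr10:88826765-88826794, minus).
Pes1: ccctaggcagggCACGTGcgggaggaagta
Mybbp1a: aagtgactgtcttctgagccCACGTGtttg
Wdr43: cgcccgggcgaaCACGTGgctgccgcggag
Nle1: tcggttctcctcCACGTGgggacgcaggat
Utp20: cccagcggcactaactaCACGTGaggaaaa
No CACGTG stood in the windows of the 4 box H/ACA genes, of Nop56 and Nop58, or of the 3 nucleolar chaperone and scaffold genes with a sequence.

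Depth, recovered from the deposited values, was 20.41 to 44.50 M reads per PDA library, 19.89 to 29.08 M per EB library and 23.91 to 35.81 M per organoid library, and the lowest member count in any library was 342 reads. Levels below are deposited normalized read counts, which are not divided by gene length, so they are compared between libraries of a table and never between genes. Rreb1 itself was detected in every library labelled KO. In PDA cells under SB505124 it had 2164 and 2195 with the KO label, against 1458 and 1501 in WT. Under TGFβ it had 2886 and 2560.4, against 4293 and 4212 in WT. At day 0 it had 2642 and 2830.0 with the KO label, against 1086 and 1019 in WT. At day 4 it had 1920.5 and 1512, against 1482 and 1586 in WT, with overlapping groups. Its transcript was thus higher with the KO label under SB505124 and at day 0, and lower under TGFβ. The sources used here do not give where the gene was edited. Replicates of KO-labelled TGFβ and WT SB505124 PDA cells stood further apart than the other pairs (chi-square of the recovered reads per degree of freedom 39.2 and 48.5, against 1.94 to 11.2 in the other pairs), and values without single libraries are given below where they change a result. Summed over 11 epithelial and pancreatic duct markers, levels ran from 385132 to 610674 in PDA libraries and from 222153 to 290239 in organoids. In bulk samples, fewer cells of a type and less RNA per cell cannot be told apart. Mouse Npm1 has processed pseudogene copies that can share its reads, so its values are less certain than the others.

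The heat map of all 38 genes gives the pattern that the comparisons then take apart. The members took 0.827% to 0.893% of all reads in KO-labelled PDA cells under TGFβ, 0.898% to 0.911% in the same cells under SB505124, 0.863% to 0.867% in WT cells under TGFβ and 1.04% to 1.12% in WT cells under SB505124. In the stem cell table the share was 1.38% to 1.48% in KO-labelled EBs at day 4, 1.35% to 1.36% in KO-labelled cells at day 0, 1.31% to 1.35% in WT EBs at day 4 and 1.53% to 1.55% in WT cells at day 0. The organoid libraries gave 0.536% (dox, TGFβ), 0.595% (dox, SB505124), 0.35% (no dox, TGFβ) and 0.365% (no dox, SB505124).

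**Figure D1:**
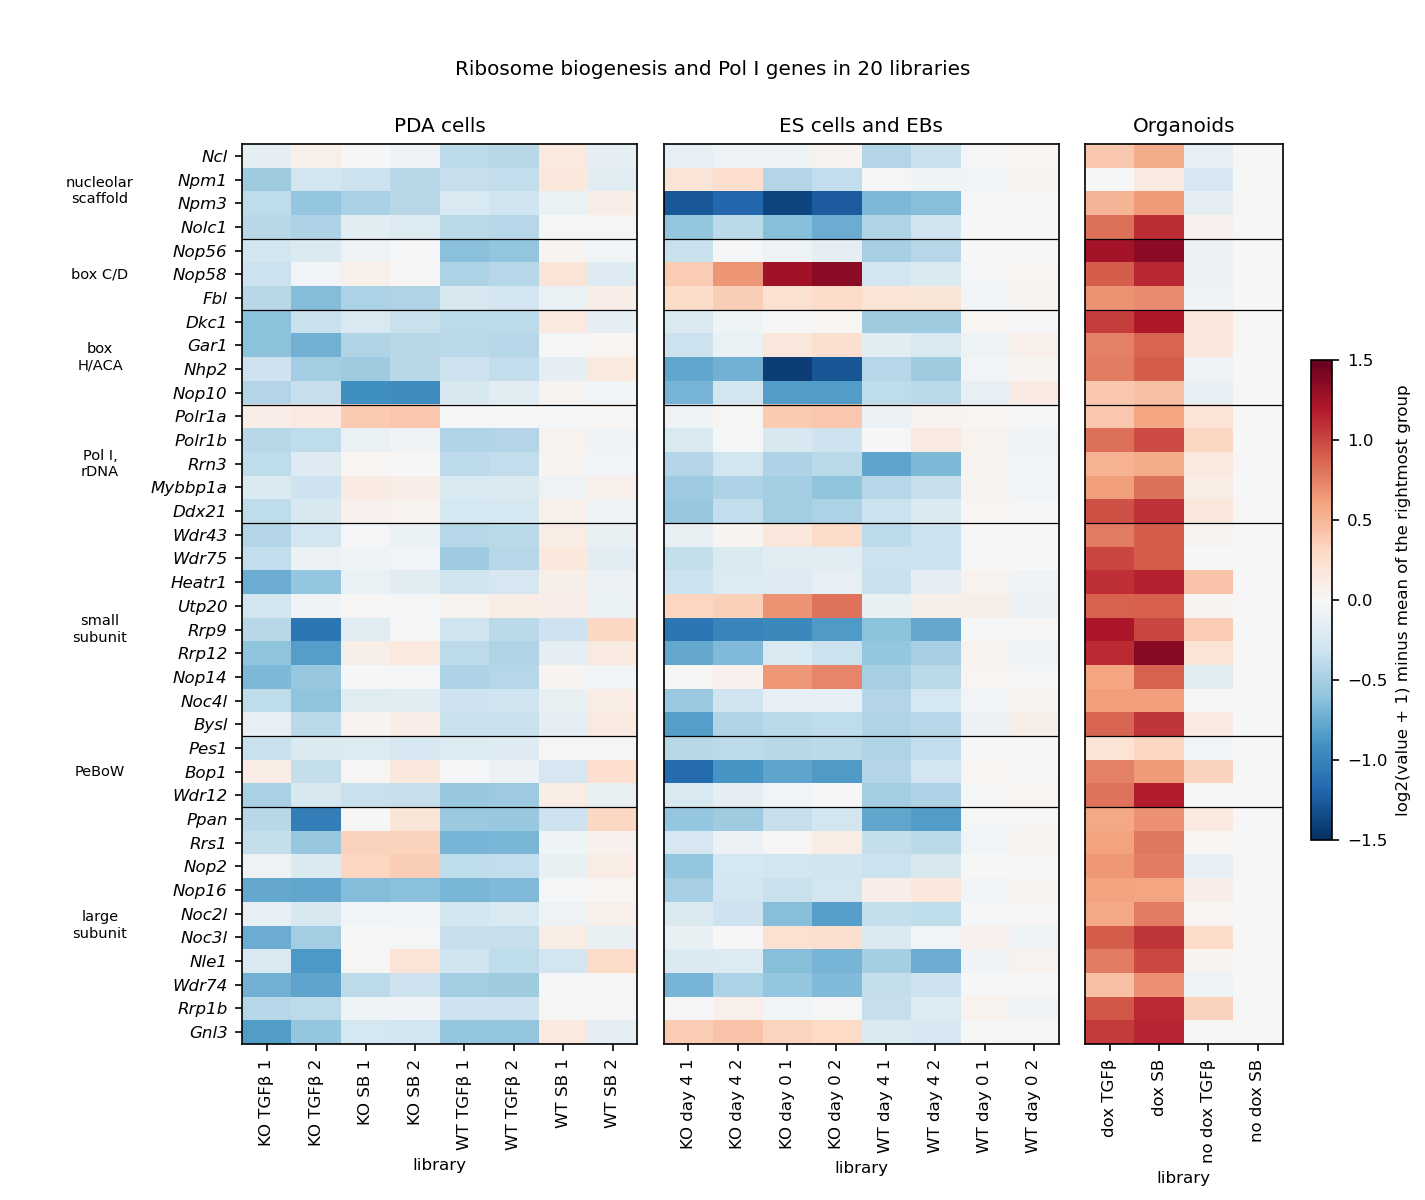
Each row is a member, grouped by role, and each column a library; colour gives log2(value + 1) minus the mean of the rightmost group of the same table (WT SB505124, WT day 0, no dox SB505124). Both WT TGFβ libraries of PDA cells are lower than the mean of WT SB505124 for 37 of 38 members, the WT day 4 EBs are mostly lower than WT day 0, and both dox organoids are higher than without dox for all 38.

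In WT PDA cells, most of the list fell under TGFβ. Of 38 members, 26 fell and 0 rose under TGFβ against SB505124 (limma, adjusted p under 0.05), where 36.9% of all 13226 genes tested passed the threshold (19.4% higher and 17.6% lower). The median log2 difference was -0.37 over the members and 0.00 over all genes tested, and 37 of 38 members had a value below 0. The changes were small: the largest, in Rrs1, left 61.9% of the mean level under SB505124.

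Of the snoRNP and scaffold genes, 2 of 3 for box C/D proteins, 2 of 4 for box H/ACA proteins and 2 of 4 for nucleolar chaperones and scaffolds fell. Nop56, a core protein of the methylating snoRNPs, had 8887 and 9048 under TGFβ, against 14107 and 13259 under SB505124 (log2 difference -0.61 ± 0.06 SE, adjusted p = 0.000314). Its partner Nop58 had 5418 and 5586 under TGFβ, against 8591 and 6616 under SB505124 (log2 difference -0.45 ± 0.13 SE, adjusted p = 0.0326). Neither pair of groups overlapped, although the 2 SB505124 libraries differ from each other by more than the TGFβ libraries do. Fbl, the methyltransferase of the same particle, had 3276 and 3193 under TGFβ and 3618 and 4165 under SB505124, a difference that did not pass the test (log2 difference -0.26 ± 0.10 SE, adjusted p = 0.073). Ncl, the abundant RNA-binding protein nucleolin, had 66296 and 65336 under TGFβ, against 96456 and 78733 under SB505124 (log2 difference -0.41 ± 0.11 SE, adjusted p = 0.0251). Its call is close to the threshold: the adjusted p was 0.0509 without the filter on low values, 0.0545 with quantile normalization and 0.126 without the second TGFβ library. The chaperone gene Npm1 had 63444 and 62534 under TGFβ and 90251 and 72255 under SB505124 and missed it (log2 difference -0.36 ± 0.12 SE, adjusted p = 0.0557). Nolc1, a chaperone of snoRNPs, fell (log2 difference -0.42 ± 0.06 SE, adjusted p = 0.00125). In the pseudouridylating box H/ACA particle, the synthase gene Dkc1 had 4916 and 4912 under TGFβ, against 7164 and 5815 under SB505124 (log2 difference -0.39 ± 0.12 SE, adjusted p = 0.0394), and Gar1 fell as well (log2 difference -0.42 ± 0.07 SE). Nhp2 and Nop10, the other core proteins, had log2 differences of -0.34 and -0.19 and did not pass (adjusted p = 0.0504 and 0.0608).

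Of the 5 Pol I and ribosomal DNA genes, 4 fell. Polr1b, a catalytic subunit of Pol I, had 3652 and 3686 under TGFβ, against 5176 and 4849 under SB505124 (log2 difference -0.45 ± 0.06 SE, adjusted p = 0.00143). Rrn3 had 3175 and 3210.2 under TGFβ, against 4293 and 4030.3 under SB505124 (log2 difference -0.38 ± 0.08 SE, adjusted p = 0.00767). The TGFβ libraries lay below both SB505124 libraries for each of these genes. Polr1a, the largest Pol I subunit, had 7400.0 and 7422 under TGFβ and 7419 and 7626 under SB505124, with overlapping groups (log2 difference -0.02 ± 0.06 SE, adjusted p = 0.793). The RNA helicase gene Ddx21 and Mybbp1a, a regulator of ribosomal RNA synthesis, fell by 0.26 and 0.22 on the log2 scale.

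Among subunit assembly genes, the large subunit factors Rrs1 and Nop16 held the largest differences. Rrs1, which in yeast helps to place the 5S particle in the large subunit, had 1827 and 1833 under TGFβ, against 2816 and 3097 under SB505124 (log2 difference -0.69 ± 0.09 SE, adjusted p = 0.000935). Nop16 had 1753 and 1781 under TGFβ, against 2775 and 2879 under SB505124 (log2 difference -0.68 ± 0.06 SE, adjusted p = 0.000213). Replicates of both genes were close and the groups far from overlapping. Gnl3, the nucleolar GTPase nucleostemin, had 4611 and 4556 under TGFβ, against 7638 and 6192 under SB505124 (log2 difference -0.59 ± 0.12 SE, adjusted p = 0.00668). Wdr74 had 2626 and 2600.2 under TGFβ, against 3703 and 3818 under SB505124 (log2 difference -0.52 ± 0.07 SE, adjusted p = 0.000868). In all, 8 of 10 large subunit members fell; Ppan and Nle1, whose SB505124 replicates differed by about as much as the groups, did not pass (adjusted p = 0.104 and 0.296). In the PeBoW complex, which acts on the large subunit precursor, Wdr12 had 1955 and 1986 under TGFβ, against 3119.5 and 2694 under SB505124 (log2 difference -0.56 ± 0.10 SE, adjusted p = 0.00507), Pes1 fell by 0.20 on the log2 scale and Bop1 did not pass (log2 difference -0.05 ± 0.19 SE). On the small subunit side, 6 of 9 members fell, from -0.49 for Wdr75 to -0.28 for Heatr1, both parts of the processome that receives the nascent precursor. Utp20, another processome protein, was the single member with a value above 0 (7384 and 7745 under TGFβ and 7658 and 6662 under SB505124, adjusted p = 0.543).

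Other genes of the pathway, from lists that do not share genes with the members, went the same way in WT cells. Of 37 other small subunit assembly genes, 25 fell and 0 rose (median log2 difference -0.34), and of 38 other large subunit assembly genes, 23 fell and 3 rose (median -0.32). Imp3, a U3 snoRNP protein, averaged 1717 ± 76.9 under TGFβ and 2692 ± 41.1 under SB505124 (SD, n = 2 each, log2 difference -0.65 ± 0.07 SE, adjusted p = 0.000382). Of 13 other Pol I subunits and cofactors, 5 fell, among them Polr1e (log2 difference -0.67 ± 0.08 SE), and 1 rose, Cd3eap, a Pol I subunit gene (log2 difference 0.55 ± 0.08 SE). Of 14 RNA exosome genes, 6 fell and 0 rose. These counts rest on both WT TGFβ libraries: without the first of them the genes called were 2 small subunit, 11 large subunit, 2 Pol I and 3 exosome genes, and without the second 3, 13, 2 and 3. Without the first WT SB505124 library, 15 small subunit genes were called. Cell cycle genes did not follow: of 23, 12 rose and 0 fell, with Mcm4, a subunit of the replicative helicase, at 0.57.

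The KO-labelled PDA cells gave a similar count with other members on top. There, 20 of 38 members fell and 1 rose, where 38.7% of all genes tested passed the threshold, 20.6% higher and 18% lower, and the median log2 difference was -0.29 over the members and 0.02 over all genes. Rrp12, which in yeast takes part in export of both subunits, had 2819.5 and 2420.3 under TGFβ, against 4539.7 and 4752 under SB505124 (log2 difference -0.83 ± 0.11 SE, adjusted p = 0.000908). Rrs1 had 2300.2 and 1986 under TGFβ, against 3761 and 3742 under SB505124 (log2 difference -0.81 ± 0.09 SE, adjusted p = 0.000375). Noc3l had 1661 and 1932 under TGFβ, against 2802 and 2735 under SB505124 (log2 difference -0.63 ± 0.10 SE, adjusted p = 0.00242). Both TGFβ libraries were below both SB505124 libraries in each case, with the 2 TGFβ libraries less alike than the SB505124 pair. Nop14 and Heatr1, small subunit factors, fell by 0.61 and 0.53 on the log2 scale, and Ppan by 0.82, with a wide error (SE 0.24, adjusted p = 0.0291) and TGFβ values of 2776 and 1814.

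All 5 Pol I and ribosomal DNA members fell in the KO-labelled cells. Polr1a had 8027 and 8208 under TGFβ, against 9906 and 9917 under SB505124 (log2 difference -0.29 ± 0.06 SE, adjusted p = 0.00555), and Polr1b had 3758 and 3842 under TGFβ, against 4689 and 4835 under SB505124 (log2 difference -0.33 ± 0.06 SE, adjusted p = 0.00557). Rrn3 had 3199 and 3628 under TGFβ, against 4240.0 and 4154 under SB505124 (log2 difference -0.30 ± 0.08 SE, adjusted p = 0.0186). The groups did not overlap for any of the 3 genes, but none of them kept its call in every alternative run. Rrn3 lost it with libraries rescaled to the same total (log2 difference -0.19). Polr1a and Polr1b lost it only when a library of KO-labelled SB505124 was left out, at log2 differences of -0.29 and -0.30. Nop56 fell by 0.20 on the log2 scale (adjusted p = 0.0364), a call lost with DESeq2 (adjusted p = 0.111). Fbl and Dkc1 did not pass (log2 difference -0.07 ± 0.10 and -0.19 ± 0.12 SE, adjusted p = 0.617 and 0.26). Of the 4 nucleolar chaperone and scaffold genes, Nolc1 fell, while Ncl had 78861 and 91890.5 under TGFβ and 87650.4 and 83864 under SB505124 and Npm1 55588 and 66986 under TGFβ and 64630.0 and 60453 under SB505124, with overlapping groups and adjusted p of 0.955 and 0.854. None of the 3 PeBoW genes passed by limma; their log2 differences were -0.05, -0.21 and -0.02 for Pes1, Bop1 and Wdr12. Nop10, the smallest protein of the box H/ACA particle, rose: it had 3113 and 3327 under TGFβ, against 2237 and 2222 under SB505124 (log2 difference 0.53 ± 0.07 SE, adjusted p = 0.000906).

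In the other pathway lists of KO-labelled cells, 17 of 37 small subunit and 14 of 38 large subunit genes fell and 0 rose in either list. Cell cycle genes again went the other way, with 20 of 23 higher and 1 lower. Of 13 other Pol I subunits and cofactors, 2 fell and 3 rose, with Cd3eap at 1.15 ± 0.08 SE on the log2 scale. Of these Pol I genes, 1 and 2 were called without the first and the second library of KO-labelled SB505124, 3 without either WT TGFβ library or with the replicate number as a block, and 8 without either WT SB505124 library. Of the 14 exosome genes 2 fell and 4 rose, and 1 was called without either library of KO-labelled SB505124. Without these libraries in turn, 5 and 6 small subunit genes and 6 and 8 large subunit genes were called. For the small subunit list the count was 10 without either WT TGFβ library and 11 without the first library of KO-labelled TGFβ.

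**Figure D2:**
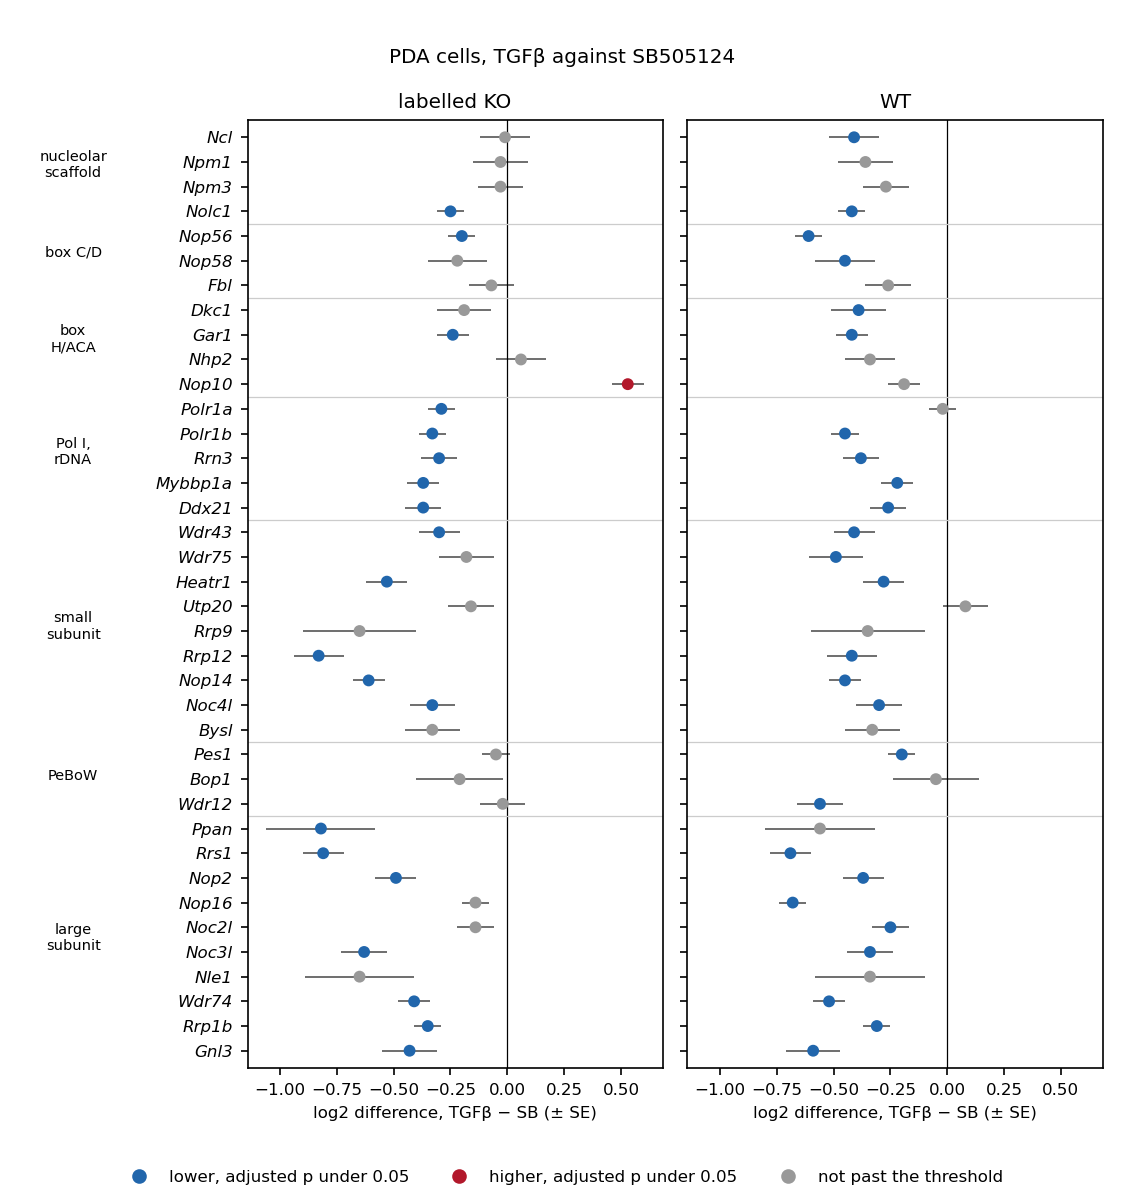
Log2 difference between TGFβ and SB505124 with its SE for each member in KO-labelled (left) and WT (right) PDA cells; colour marks the limma call. Most points sit left of 0 in both panels, with Rrp12 at -0.83 lowest in the left panel, Rrs1 at -0.69 lowest in the right one, and Nop10 the one member called higher.

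The responses of both labels were set against each other by the interaction, the response of KO-labelled cells minus that of WT cells. It passed the threshold for 5 of 38 members, or 13.2% (4 higher and 1 lower), against 21.8% of all genes tested (9.71% higher and 12.1% lower). The median difference was 0.11 over the members and -0.01 over all genes. Nop10 differed most, by 0.72 ± 0.10 SE (adjusted p = 0.00356). Nop16 (0.54 ± 0.09, adjusted p = 0.0072), Wdr12 (0.54 ± 0.15, adjusted p = 0.0365) and Nop56 (0.41 ± 0.09, adjusted p = 0.0174) had higher values in the same direction, and Polr1a (-0.27 ± 0.08, adjusted p = 0.0485) had a lower one. Ncl, Npm1, Fbl, Dkc1, Polr1b and Rrn3 did not pass (adjusted p from 0.113 for Ncl to 0.639 for Rrn3). Nop10 alone of the 5 kept its call in every alternative that was run, and rescaling each library to the same total left 4 higher and 0 lower, with all calls split into 1869 higher and 1388 lower, in place of 1284 and 1602. Without the second library of WT SB505124 the count was 8. It was 1 without either WT TGFβ library or the first library of KO-labelled SB505124, 2 without the second of these, and 3 without the second library of KO-labelled TGFβ.

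The labels also differed without TGFβ. Under SB505124, 3 members were higher and 11 lower in KO-labelled than in WT cells, where 56.2% of all genes passed the threshold (28.9% higher and 27.2% lower), and the median was -0.05. Nop10 had 2237 and 2222 in KO-labelled cells, against 4341 and 4123 in WT cells (log2 difference -0.92 ± 0.07 SE, adjusted p = 3.01e-05), and Nop16 had 1804 and 1831, against 2775 and 2879 in WT cells (log2 difference -0.64 ± 0.06 SE, adjusted p = 0.000125). For both genes the KO-labelled libraries were close together and below both WT libraries. Nhp2, Fbl, Npm3 and Gar1 were lower by 0.43 to 0.47 on the log2 scale, and Npm1 by 0.37 (adjusted p = 0.0357). Ncl, Nop56, Dkc1, Polr1b and Rrn3 did not pass (adjusted p = 0.871, 0.489, 0.0866, 0.351 and 0.899). Polr1a was higher, with 9906 and 9917 in KO-labelled cells, against 7419 and 7626 in WT cells (log2 difference 0.40 ± 0.06 SE, adjusted p = 0.000669). Rrs1 and Nop2 had log2 differences of 0.35 and 0.35 (adjusted p = 0.0118 and 0.00995), and both lost the call when libraries were rescaled to the same total. That rescaling gave 1 higher and 18 lower, and it moved the median over all genes to -0.16 and the split of all calls to 2975 higher and 4901 lower, against 3828 higher and 3600 lower on the deposited scale. Without either library of KO-labelled SB505124, 8 members were called.

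Under TGFβ the KO-labelled and WT cells differed in 5 members, 2 higher and 3 lower, against 40.2% of all genes (21.2% higher and 19% lower), with a median of -0.08. Nop56 had 11186 and 11739.9 in KO-labelled cells, against 8887 and 9048 in WT cells (log2 difference 0.35 ± 0.06 SE, adjusted p = 0.00298), and Ncl had 78861 and 91890.5, against 66296 and 65336 in WT cells (log2 difference 0.37 ± 0.11 SE, adjusted p = 0.0312). Heatr1 had 3389 and 3789, against 4589 and 4739.5 in WT cells (log2 difference -0.38 ± 0.09 SE, adjusted p = 0.00951), and Gar1 and Wdr74 were lower by 0.25 and 0.23 on the log2 scale. Npm1, Fbl, Dkc1, Polr1a, Polr1b and Rrn3 did not pass (adjusted p from 0.061 for Fbl to 0.795 for Npm1). This count moved with the processing: it was 12 (1 higher and 11 lower) with libraries rescaled to the same total, when all genes split into 2360 higher and 3305 lower calls in place of 2808 and 2508. It was 13 without either WT SB505124 library, 9 without the first library of KO-labelled TGFβ, 2 without either library of KO-labelled SB505124 and 1 without either WT TGFβ library. Nop56 alone of the 5 kept its call in every alternative run.

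The size of the TGFβ counts also depended on single libraries. Each fit without a library leaves 1 in its group, so a lower count can come from fewer libraries alone. Over these fits the median log2 difference of the members ran from -0.377 to -0.353 in WT cells. In KO-labelled cells it ran from -0.32 to -0.281. The 26 members called in WT cells became 9 without either WT TGFβ library and 16 without either library of KO-labelled SB505124, which enters through the shared estimate of the spread. The 21 called in KO-labelled cells became 11 without either SB505124 library. With libraries rescaled to the same total the counts were 20 lower in WT and 13 lower and 1 higher in KO-labelled cells, and the median over all genes of the comparison in KO-labelled cells moved to 0.13, with all calls split into 3830 higher and 1802 lower, in place of 2731 and 2382. Kept in every alternative run were the calls of Rrs1, Nop16, Nop56, Wdr12, Wdr74 and Polr1b among the 10 called members followed in WT cells, and of Nop10, Rrp12, Rrs1, Noc3l, Nop14 and Heatr1 among the 11 in KO-labelled cells.

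Myc, like most members, was lower under TGFβ than under SB505124 in PDA cells. It had 2250.4 and 1729 under TGFβ, against 15713 and 16789 under SB505124 in KO-labelled cells (log2 difference -3.04 ± 0.13 SE, adjusted p = 4.43e-06). In WT cells it had 1314 and 1330.2 under TGFβ, against 8881 and 10289 under SB505124 (log2 difference -2.85 ± 0.13 SE, adjusted p = 7.3e-06). Myc was thus far lower under TGFβ with either label, and the interaction did not pass (log2 difference -0.19 ± 0.18 SE, adjusted p = 0.496). Between labels, under SB505124, both KO-labelled libraries had more Myc than both WT libraries. There 3 members were higher (7.89%) and 11 lower (28.9%), beside 28.9% and 27.2% of all genes. The same held for Myc under TGFβ, where 2 members were higher (5.26%) and 3 lower (7.89%), beside 21.2% and 19% of all genes. These member counts moved with the scaling, as given above. Mxd1, which pairs with Max in place of Myc and represses, was higher under TGFβ in KO-labelled cells (log2 difference 0.81 ± 0.08 SE) and in WT cells (1.72 ± 0.08 SE). Mycn had 109.7 and 106 under TGFβ, against 4 and 11.9 under SB505124 in KO-labelled cells, and 112 and 94.4 under TGFβ, against 5.5 and 12.8 under SB505124 in WT cells. The part of Myc in the members' values was not tested.

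**Figure D3:**
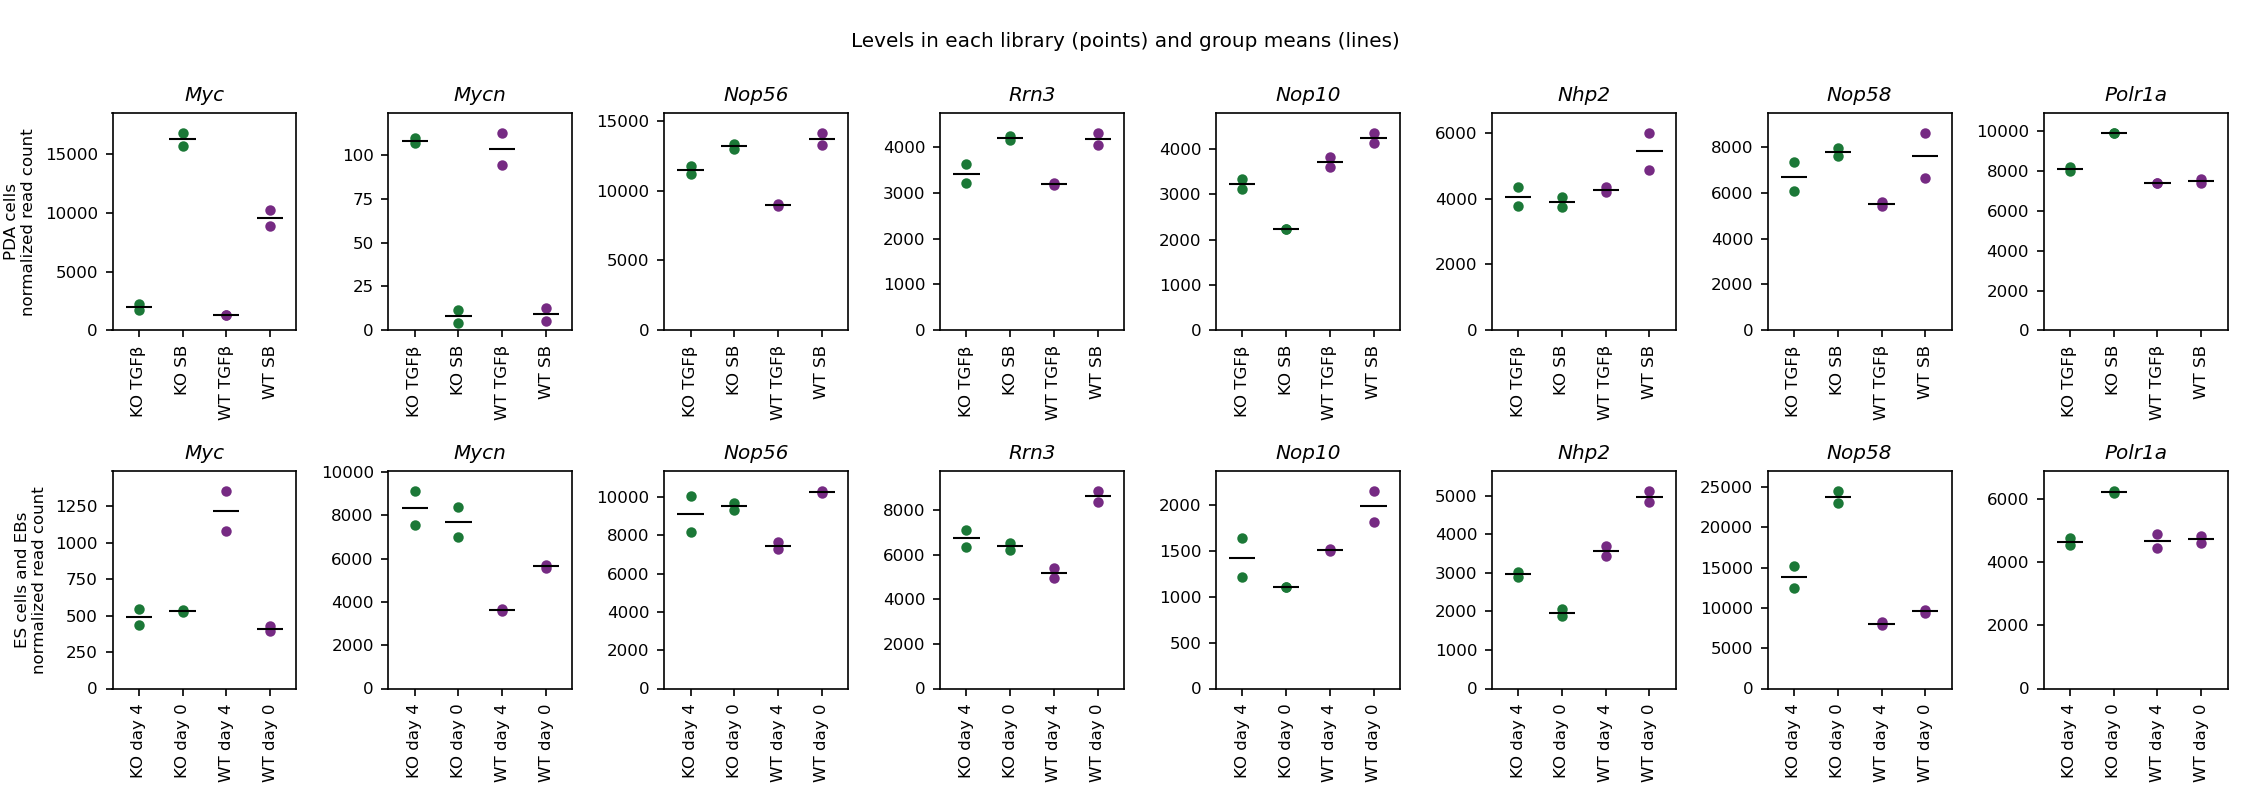
Deposited normalized read counts of Myc, Mycn and 6 members in each PDA library (top row) and each stem cell or EB library (bottom row); points are libraries, lines are means of 2. Myc is near its lowest in both TGFβ groups of PDA cells, while in the lower row the highest Myc values are those of WT EBs at day 4, where Rrn3 and Nop56 are lowest.

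In WT EBs the list fell again, over 4 days of differentiation. Between day 4 and day 0, 31 of 38 members fell and 1 rose, where 63.1% of all 15227 genes tested passed the threshold, 32.3% higher and 30.8% lower. The median log2 difference was -0.37 over the members and 0.00 over all genes, and no role group had a median above 0.

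Ppan, a large subunit factor, had the largest difference. It had 2419 and 2307 at day 4, against 4074 and 4205 at day 0 (log2 difference -0.81 ± 0.06 SE, adjusted p = 8.38e-08). Nle1, whose yeast counterpart is removed from the large subunit precursor by the Rea1 ATPase, had 1068 and 909 at day 4, against 1464 and 1576 at day 0 (log2 difference -0.62 ± 0.09 SE, adjusted p = 2.01e-05). The day 4 libraries were below both day 0 libraries for each. Rrp9, a U3 snoRNP protein of the small subunit side, had 2251 and 2032 at day 4, against 3417 and 3496 at day 0 (log2 difference -0.69 ± 0.07 SE, adjusted p = 1.82e-06), and Rrp12 fell by 0.53 on the log2 scale. All 4 box H/ACA genes fell, with Dkc1 at 5622 and 5642 at day 4, against 8332 and 7970.0 at day 0 (log2 difference -0.53 ± 0.07 SE, adjusted p = 8.83e-06). Nop56 had 7276 and 7645 at day 4, against 10305 and 10218 at day 0 (log2 difference -0.46 ± 0.08 SE, adjusted p = 0.000274). Its particle was not of one piece: Nop58 fell by 0.25 on the log2 scale, and Fbl was the one member that rose (4512 and 4478 at day 4, against 3847 and 4042 at day 0, log2 difference 0.19 ± 0.06 SE, adjusted p = 0.0201). Npm3, of the same chaperone family as Npm1, had 2337 and 2396 at day 4, against 3667 and 3772 at day 0 (log2 difference -0.65 ± 0.07 SE, adjusted p = 1.99e-06). Ncl fell (log2 difference -0.39 ± 0.09 SE, adjusted p = 0.00151), whereas Npm1 had 85757 and 83645 at day 4 and 85189.7 and 89781 at day 0 with overlapping groups (adjusted p = 0.654).

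The Pol I group split in WT EBs. Rrn3 had 4955 and 5391 at day 4, against 8844 and 8374 at day 0 (log2 difference -0.74 ± 0.07 SE, adjusted p = 8.73e-07), a level at 60.1% of day 0, and Mybbp1a and Ddx21 fell by 0.39 and 0.27 on the log2 scale. The 2 Pol I subunits overlapped between days: Polr1a had 4441 and 4890.2 at day 4 and 4835 and 4608 at day 0 (adjusted p = 0.826), and Polr1b 2974 and 3256 at day 4 and 3083 and 2856 at day 0 (adjusted p = 0.469). Of 13 other Pol I subunits and cofactors, 8 fell and 1 rose, with Ubtf, which opens the ribosomal DNA for Pol I, at -0.77 ± 0.07 SE and Tcof1, the treacle protein gene, at -0.69 ± 0.06 SE. In the other assembly lists, 22 of 37 small subunit and 24 of 38 large subunit genes fell, with 2 and 0 higher. Nol6, of the small subunit list, had a log2 difference of -0.76 ± 0.07 SE. Cell cycle genes fell as well here, 14 of 23, with 3 higher. Of the 10 called members followed here, 9 kept their call in every alternative run, and Fbl lost it when single libraries were left out.

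In KO-labelled EBs members changed in both directions. Between day 4 and day 0, 12 of 38 members fell and 6 rose, where 60% of all genes passed the threshold, 29.1% higher and 30.9% lower, and the median log2 difference was -0.10 over the members and -0.02 over all genes. With quantile normalization the split was 9 lower and 10 higher. Npm1 rose, with 100002 and 104239.5 at day 4, against 64609 and 67499 at day 0 (log2 difference 0.63 ± 0.09 SE, adjusted p = 2.13e-05), a call lost under quantile normalization, where its log2 difference was 0.13. Nhp2 had 2902 and 3025 at day 4, against 1875 and 2051 at day 0 (log2 difference 0.60 ± 0.07 SE, adjusted p = 6.07e-06). Noc2l had 4913 and 4601 at day 4, against 3668 and 3225 at day 0 (log2 difference 0.47 ± 0.07 SE, adjusted p = 6.52e-05). In these genes both day 4 libraries lay above both day 0 libraries. Nle1, Nop10 and Nolc1 rose by 0.46, 0.35 and 0.20 on the log2 scale. Nop10 rested largely on 1 library, with a log2 difference of 0.14 without the second KO-labelled day 4 library. Nolc1 lost its call without the filter on low values (adjusted p = 0.0576).

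Members that fell in KO-labelled EBs included Nop58, with 12480.4 and 15182 at day 4, against 23047 and 24477 at day 0 (log2 difference -0.79 ± 0.08 SE, adjusted p = 2.28e-06). Nop14 had 4589 and 4744 at day 4, against 7152 and 7525 at day 0 (log2 difference -0.65 ± 0.07 SE, adjusted p = 1.07e-06), and Polr1a had 4535 and 4766 at day 4, against 6187 and 6250.0 at day 0 (log2 difference -0.42 ± 0.07 SE, adjusted p = 0.000101). Both day 4 libraries lay below both day 0 libraries for these genes. Rrp12, Gar1 and Utp20 fell by 0.44, 0.42 and 0.41 on the log2 scale. Rrn3 had 6342 and 7107 at day 4 and 6219 and 6524 at day 0, with overlapping groups (adjusted p = 0.393), and Nop56, Dkc1, Ncl, Fbl and Polr1b did not pass either (adjusted p = 0.48, 0.0701, 0.352, 0.396 and 0.126). In the other assembly lists, 17 of 37 small subunit genes fell and 1 rose, and 23 of 38 large subunit genes fell and 2 rose. Of 13 other Pol I subunits and cofactors 5 fell, with Tcof1 at -0.82 ± 0.06 SE, and 2 rose, and of 23 cell cycle genes 17 fell and 2 rose. Of the large subunit genes, 16 were called without the second KO-labelled library of day 0 or the first of day 4.

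**Figure D4:**
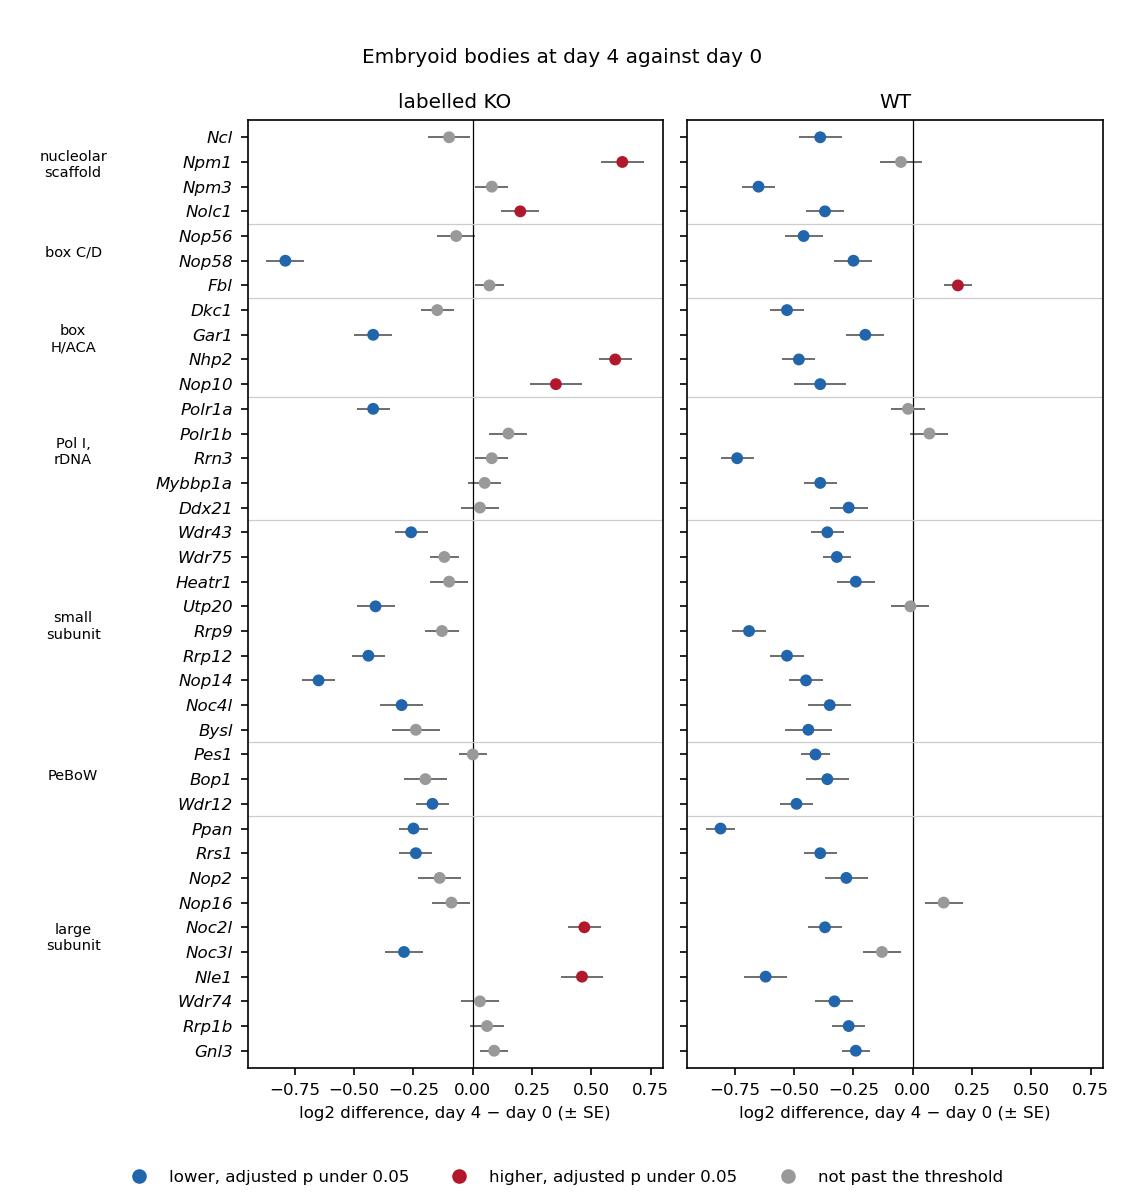
Log2 difference between day 4 and day 0 with its SE for each member in KO-labelled (left) and WT (right) cells; colour marks the limma call. The right panel is almost all lower, down to -0.81 for Ppan, while the left panel has members on both sides, from -0.79 for Nop58 to 0.63 for Npm1.

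The change over 4 days differed between the labels for 22 of 38 members, 19 higher and 3 lower in KO-labelled minus WT, against 55.7% of all genes (27.1% higher and 28.6% lower). The share of members, 57.9%, is close to that of all genes, and the calls lie mostly on the higher side. The median difference was 0.29 over the members and -0.01 over all genes. Nle1 differed by 1.08 ± 0.12 SE (adjusted p = 4.82e-06), Nhp2 by 1.07 ± 0.10 SE (adjusted p = 8.69e-07), Noc2l by 0.84 ± 0.10 SE (adjusted p = 9.94e-06) and Rrn3 by 0.81 ± 0.10 SE (adjusted p = 1.68e-05). Nop10 and Npm3 differed by 0.74 ± 0.16 and 0.73 ± 0.10 SE, and Npm1, Nop56 and Dkc1 by 0.67 ± 0.12, 0.39 ± 0.12 and 0.38 ± 0.10 SE. Quantile normalization brought Npm1 to 0.13 (adjusted p = 0.401), and Nop56 lost its call without the first WT day 4 library (adjusted p = 0.0793). The box H/ACA group and the chaperone and scaffold group each had 3 of 4 genes higher. In the opposite direction were Nop58 (-0.53 ± 0.12 SE), Polr1a (-0.40 ± 0.10 SE) and Utp20 (-0.40 ± 0.11 SE). Utp20 lost its call without the second library of WT day 0, WT day 4 or KO-labelled day 0 (adjusted p = 0.0633, 0.0739 and 0.0512). Ncl, Fbl and Polr1b did not pass (adjusted p = 0.062, 0.271 and 0.571). Small subunit members held 1 of the higher and 1 of the lower calls among 9, and large subunit members 6 higher and 0 lower among 10. The other small subunit list gave 8 higher and 6 lower calls (median 0.02) and the other large subunit list 9 higher and 2 lower (median 0.01). The 14 small subunit calls became 9 without the first WT day 0 library and 8 without the second WT day 4 library.

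At day 0 the labels already differed. In KO-labelled stem cells 9 members were higher and 21 lower than in WT, against 67.2% of all genes (33.9% higher and 33.3% lower), and the median log2 difference was -0.28. Nhp2 had 1875 and 2051 in KO-labelled cells, against 4836 and 5119 in WT cells (log2 difference -1.34 ± 0.07 SE, adjusted p = 1.54e-09), and Npm3 had 1435 and 1571, against 3667 and 3772 in WT cells (log2 difference -1.31 ± 0.07 SE, adjusted p = 1.91e-09). Rrp9, Nop10, Bop1 and Noc2l were lower by 0.91, 0.84, 0.82 and 0.73 on the log2 scale. Nop58 went the other way, with 23047 and 24477 in KO-labelled cells, against 9390.2 and 9786 in WT cells (log2 difference 1.31 ± 0.08 SE, adjusted p = 1.03e-08), the largest rise of any member in the PDA and EB comparisons. Utp20 had 7895 and 8660.3, against 5224 and 4651 in WT cells (log2 difference 0.75 ± 0.08 SE, adjusted p = 1.74e-06), and Nop14 had 7152 and 7525, against 4642 and 4446 in WT cells (log2 difference 0.69 ± 0.07 SE, adjusted p = 4.15e-07). None of these groups overlapped. Polr1a, Gnl3 and Fbl were higher by 0.40, 0.32 and 0.26 on the log2 scale, and Rrn3, Npm1 and Polr1b lower by 0.43, 0.41 and 0.27. Ncl, Nop56 and Dkc1 did not pass (adjusted p = 0.973, 0.271 and 0.914). Quantile normalization gave 6 higher and 24 lower, put Ncl past the threshold, and ended the calls of Fbl (log2 difference 0.11, adjusted p = 0.161) and Npm1 (log2 difference -0.13, adjusted p = 0.216). Polr1b lost its call without the first WT or the second KO-labelled library of day 0 (adjusted p = 0.0827 and 0.0631).

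At day 4, 15 members were higher and 9 lower in KO-labelled than in WT EBs, against 56.2% of all genes (27.8% higher and 28.4% lower), with a median of 0.02. Nop58 had 12480.4 and 15182 in KO-labelled EBs, against 7836 and 8250.2 in WT EBs (log2 difference 0.78 ± 0.08 SE, adjusted p = 2.64e-06), and Gnl3 had 9756 and 10007, against 6401 and 6269.5 in WT EBs (log2 difference 0.64 ± 0.06 SE, adjusted p = 6.52e-07). Rrn3 had 6342 and 7107, against 4955 and 5391 in WT EBs (log2 difference 0.38 ± 0.07 SE, adjusted p = 0.000541), and Nop14, Nle1 and Dkc1 were higher by 0.49, 0.41 and 0.39 on the log2 scale. The KO-labelled EBs lay above the WT EBs in both libraries for these genes. Ncl, Npm1 and Nop56 were higher by 0.28, 0.27 and 0.28, with calls lost in some alternatives. Bop1 was lower, with 1436 and 1738 in KO-labelled EBs, against 2367 and 2623 in WT EBs (log2 difference -0.66 ± 0.09 SE, adjusted p = 1.89e-05), as were Npm3, Nop16 and Rrp9 by 0.57, 0.53 and 0.35 on the log2 scale, Nhp2 and Wdr74 by 0.27 and 0.26, and Polr1b by 0.20 (adjusted p = 0.0497). Fbl and Polr1a did not pass (adjusted p = 0.0925 and 0.969). The split turned with the scaling: it was 10 higher and 13 lower with libraries rescaled to the same total and 11 higher and 12 lower with quantile normalization. Rescaling moved the median over all genes to -0.11 and all calls to 3428 higher and 5331 lower, in place of 4236 and 4319. Nop58, Gnl3, Nop14, Nle1, Dkc1, Rrn3, Bop1, Npm3, Nop16 and Rrp9 kept their calls in every alternative run.

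Cell type markers also differed between the labels. Summed over 9 mesoderm and primitive streak markers, levels were 795 to 806 in KO-labelled and 6807 to 12249.8 in WT EBs at day 4, with 5 of 9 markers at a mean of 10 or more in KO-labelled and 9 of 9 in WT EBs. Summed over 7 endoderm markers they were 148 to 168 in KO-labelled EBs, with Cer1 at 0 and 3 of 7 markers at 10 or more, and 4615.0 to 4852 in WT EBs, with 7 of 7. Summed over 10 pluripotency markers, levels were 71137 to 71175 in KO-labelled and 38301 to 38528 in WT EBs at day 4. All 10 of 10 markers were at 10 or more in each group. At day 0 the sums were 144726 to 154493 in KO-labelled and 120087.5 to 120517 in WT cells. At day 4 the means of 6 pluripotency markers were higher in KO-labelled than in WT EBs and those of 4 were lower. Pou5f1 had 23459 and 26859 in KO-labelled and 10361 and 10924 in WT EBs, Sox2 16102 and 14301 in KO-labelled and 7576 and 6311 in WT EBs and Esrrb 10905 and 10217 in KO-labelled and 4187 and 4032 in WT EBs. On the lower side Nanog had 5026 and 4998 in KO-labelled and 6266 and 6643 in WT EBs, Tbx3 730 and 621 in KO-labelled and 1501 and 2245 in WT EBs and Dppa3 14.7 and 16.8 in KO-labelled and 381.5 and 397 in WT EBs, while Klf4 overlapped between the groups. The pluripotency list thus went both ways at day 4. The 6 neuroectoderm markers summed to 12269 to 12332 in KO-labelled and 6959.5 to 7788 in WT EBs, with 5 and 4 of them at 10 or more. Most of that sum was Otx2, at 11711 and 11823 in KO-labelled and 6241 and 5333 in WT EBs. The means of 4 neuroectoderm markers were higher in KO-labelled EBs (Otx2, Pax6, Zic1 and Neurog2, the last near 0) and those of 2 were lower. Pax6 had 147 and 168 in KO-labelled and 105 and 53.2 in WT EBs. On the lower side Sox1 had 12.4 and 12.8 in KO-labelled and 172 and 69 in WT EBs. Nes had 384 and 316 in KO-labelled and 1258 and 1495 in WT EBs. The part of these cell types in the members' values was not tested.

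Myc was also followed in stem cells and EBs. In KO-labelled cells it had 435 and 544 at day 4 and 528 and 538 at day 0 (adjusted p = 0.365). In WT cells it had 1084 and 1355 at day 4, against 395 and 428 at day 0 (log2 difference 1.56 ± 0.12 SE, adjusted p = 6.99e-08). In that comparison 31 of 38 members fell (81.6%), beside 30.8% of all genes. Mycn, the family member known for its role in stem cells and the early embryo, had 7571 and 9118 at day 4 and 6981 and 8380.1 at day 0 in KO-labelled cells, with overlapping groups (adjusted p = 0.286). In WT cells Mycn had 3559.8 and 3668 at day 4, against 5730.0 and 5554 at day 0 (log2 difference -0.64 ± 0.09 SE, adjusted p = 3.3e-05). Its change differed between labels by 0.76 ± 0.13 SE (adjusted p = 0.00023), and that of Myc by -1.69 ± 0.17 SE (adjusted p = 2.01e-06). The part of Myc and Mycn in the members' values in EBs was not tested.

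Organoids had 1 library per condition, so their differences have no replicate check and were not tested. Log2 ratios were taken after adding 1 to each value. Their exact 95% intervals were computed on recovered reads and cover counting error only. The share of all genes with an interval off 0 was not counted, so counts of such members have no background beside them. A difference past 1.5-fold is given the place of a call. Between dox and no dox under SB505124, 33 of 38 members were past 1.5-fold higher and 0 lower, where 36.2% of all 13443 genes measured were past it (18% higher and 18.2% lower). The median log2 ratio was 0.89 over the members and 0.00 over all genes, and the intervals of all 38 members lay above 0. Under TGFβ, 24 members were past 1.5-fold higher and 0 lower, against 35% of all genes (16.8% higher and 18.2% lower), with a median of 0.65 and again 38 intervals above 0. Past 2-fold there were 12 members under SB505124 and 2 under TGFβ.

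Nop56 had 4519 with dox, against 1777 without it under SB505124 (log2 ratio 1.35, interval 1.27 to 1.42). Under TGFβ it had 4217 with dox, against 1676 without it (log2 ratio 1.33, interval 1.25 to 1.42). It was the member with the highest ratio under TGFβ, followed by Gnl3, Wdr75 and Nop58. Rrp12 had 1177 with dox, against 458 without it under SB505124 (log2 ratio 1.36, interval 1.22 to 1.51), and 999 with dox, against 529.5 without it under TGFβ (log2 ratio 0.92, interval 0.76 to 1.08). Dkc1 had 2101 with dox, against 916 without it under SB505124 (log2 ratio 1.20, interval 1.09 to 1.30), and 1879 with dox, against 1021 without it under TGFβ (log2 ratio 0.88, interval 0.76 to 1.00). These members span the box C/D, small subunit and box H/ACA roles. Gnl3, of the large subunit, had 2146 with dox, against 1048 without it under TGFβ (log2 ratio 1.03, interval 0.92 to 1.15), and Wdr12 had 1094 with dox, against 485 without it under SB505124 (log2 ratio 1.17, interval 1.03 to 1.32).

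The lowest ratios belonged to Npm1, Pes1, Nop10 and Ncl under SB505124 and to Polr1a, Pes1, Npm1 and Rrn3 under TGFβ. Npm1 had 35058 with dox, against 32007 without it under SB505124 (log2 ratio 0.13, interval 0.11 to 0.15), and 32239 with dox, against 26889 without it under TGFβ (log2 ratio 0.26, interval 0.24 to 0.29). Pes1 was at 1.25 times its level without dox under SB505124 and 1.18 times under TGFβ. Polr1a had 1983 with dox, against 1727 without it under TGFβ (log2 ratio 0.20, interval 0.10 to 0.30), below the threshold, and 2257 with dox, against 1501 without it under SB505124 (log2 ratio 0.59, interval 0.50 to 0.67), just past it. Rrn3 was under 1.5-fold with both (log2 ratio 0.56, interval 0.47 to 0.65 under SB505124, log2 ratio 0.38, interval 0.28 to 0.48 under TGFβ). Ncl was under it as well (log2 ratio 0.55, interval 0.53 to 0.58 under SB505124, log2 ratio 0.54, interval 0.51 to 0.56 under TGFβ), while Fbl was past it (log2 ratio 0.70, interval 0.62 to 0.79 under SB505124, log2 ratio 0.75, interval 0.65 to 0.85 under TGFβ) and Polr1b only under SB505124 (log2 ratio 0.98, interval 0.86 to 1.10, against log2 ratio 0.51, interval 0.37 to 0.64 under TGFβ, a difference that was not tested). All 9 small subunit members were past 1.5-fold under either treatment.

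**Figure D5:**
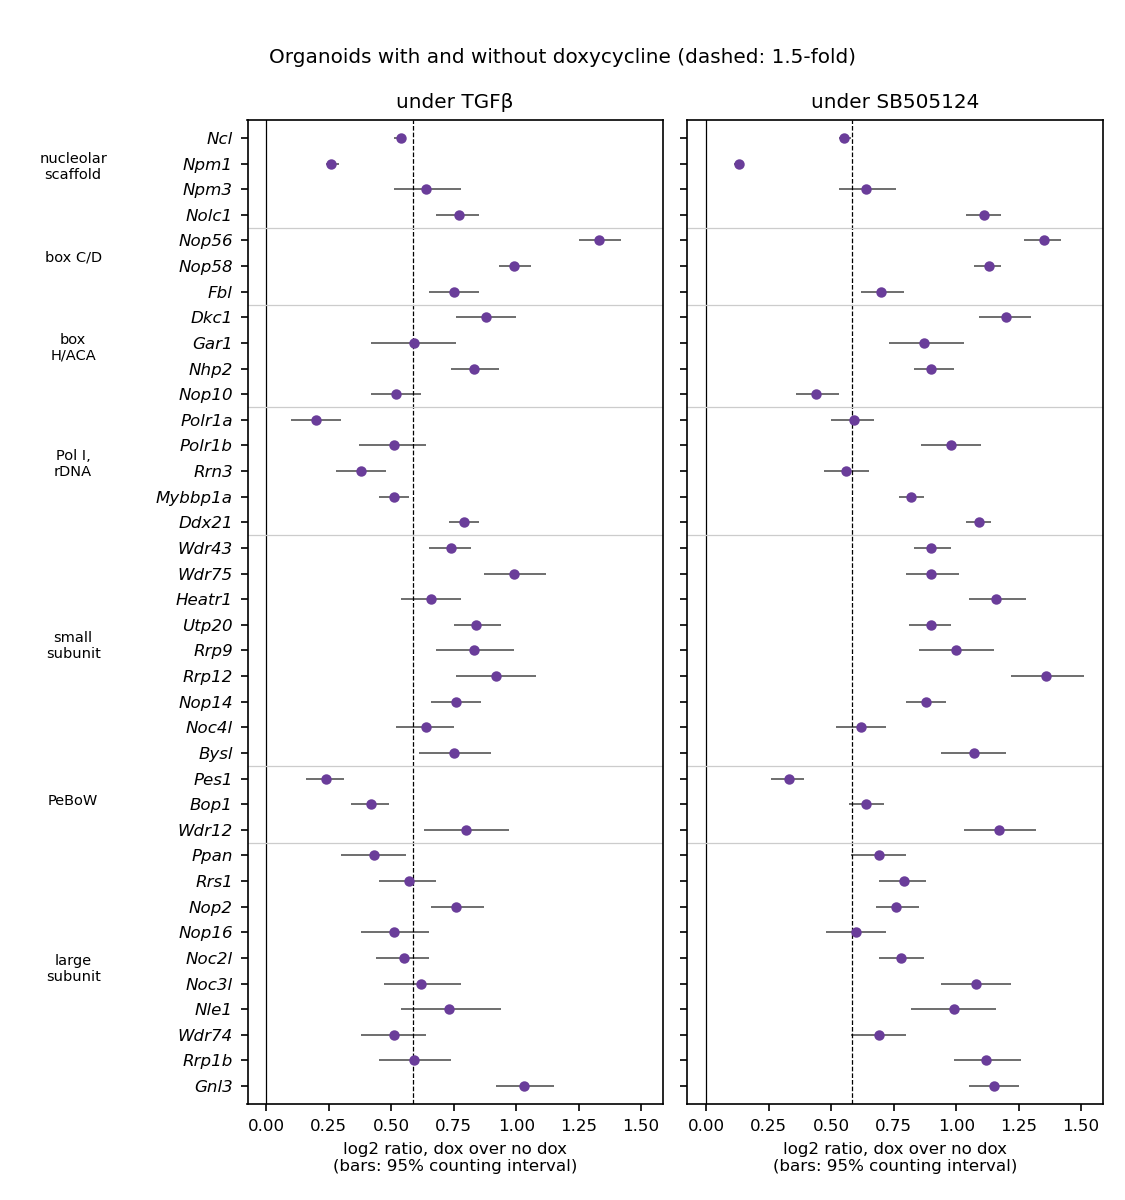
Log2 ratio of organoids with dox over those without it, under TGFβ (left) and SB505124 (right), for each member; bars are exact 95% counting intervals and the dashed line marks 1.5-fold. Every point lies right of 0, from 0.20 for Polr1a to 1.33 for Nop56 in the left panel and from 0.13 for Npm1 to 1.36 for Rrp12 in the right one.

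Part of the rest of the pathway was higher with dox too. Under SB505124, 20 of 37 other small subunit genes (median log2 ratio 0.62), 14 of 38 other large subunit genes (0.52), 5 of 14 exosome genes (0.47) and 4 of 13 other Pol I genes (0.25) were past 1.5-fold higher, and 0 were past it lower in these 4 lists, beside 18% of all genes higher. Under TGFβ the counts were 9 small subunit (median 0.40), 10 large subunit (0.50), 5 exosome (0.52) and 3 other Pol I genes (0.21) higher and 1 large subunit gene lower, beside 16.8% of all genes higher. Of 23 cell cycle genes, 15 were past it under SB505124 (median 0.83) and 20 under TGFβ (median 1.14). Myc had 4906 with dox, against 3087 without it under SB505124, and 3847 with dox, against 2436 without it under TGFβ. Mycn, with 143 with dox, against 166 without it under SB505124, and 533 with dox, against 507 without it under TGFβ, had intervals that held 0. The part of cell cycle genes or of Myc in the members' values was not tested, and with 1 library each, dox and any other difference between these cultures cannot be told apart.

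TGFβ against SB505124 left the organoid members nearly where they were. With dox, 0 of 38 were past 1.5-fold either way, where 15% of all genes were (7.74% higher and 7.23% lower), with a median of -0.13, 27 intervals below 0 and 3 above. Without dox, 0 of 38 were past it, where 16.5% of all genes were (8.44% higher and 8.02% lower), with a median of 0.04, 6 intervals below 0 and 13 above. Intervals off 0 were not counted over all genes here either. With dox, Wdr12, Nolc1, Nop14 and Wdr74 had the lowest ratios, -0.36 to -0.25, and Rrp9, Bop1 and Wdr75 the highest, 0.22 to 0.10. Wdr12 gives the size of these differences (849.9 under TGFβ, against 1094 under SB505124, log2 ratio -0.36, interval -0.49 to -0.24), and without dox Heatr1 had the highest ratio (993 under TGFβ, against 736 under SB505124, log2 ratio 0.43, interval 0.30 to 0.57). Rrp9, Rrp1b and Bop1 came next without dox, at 0.38 to 0.34, and Npm1, Nop14, Npm3 and Ncl were lowest, at -0.25 to -0.13. Myc had 3847 under TGFβ, against 4906 under SB505124 with dox, and 2436 under TGFβ, against 3087 under SB505124 without it. Mycn was past 1.5-fold higher, with 533 under TGFβ, against 143 under SB505124 with dox (log2 ratio 1.89, interval 1.65 to 2.15), and 507 under TGFβ, against 166 under SB505124 without it (log2 ratio 1.61, interval 1.37 to 1.86). Rreb1 was under 1.5-fold in both comparisons (log2 ratio 0.47 with dox and 0.10 without it).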

How the data were processed

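The authors deposited 3 tables of normalized read counts per gene, a scaled signal that is not divided by gene length. HTSeq 0.6.1p1, DESeq2 3.4, Bowtie2, HOMER, FastQC 0.11.5 and the build mm10 are named, with no role, per the submitters' processing notes. Per the labels' protocols the libraries were made with TruSeq RNA v2, which does not mark strand. Dividing each column by its smallest step gave whole reads for 100% of values in each of the 20 columns (tolerance 0.001). The step of the first WT day 0 column, 0.992, lies near 1, and a second check of whole reads could not be applied to that column, whose reads rest on this division alone.

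Values were tested as log2(value + 1) with limma 3.58.1 (R 4.3.3, trend, 4 groups of 2 per table), on genes at 10 or more in at least 2 libraries (13226 in the PDA and 15227 in the EB table), with Benjamini-Hochberg adjustment over all genes and a threshold of 0.05. On recovered reads, edgeR 4.0.16 called 5171 genes in WT and 5053 in KO-labelled PDA cells and 9656 in WT and 8970 in KO-labelled EBs, and DESeq2 1.42.0 was a further alternative. Organoid ratios used genes with a mean of 10 or more and exact Clopper-Pearson intervals at 95%. Each replicated comparison names the 6 called members with the largest difference each way and 8 members throughout, organoids the 4 largest each way, and Myc, Mycn and Rreb1. Members and gene lists were chosen with earlier results of these data known. The procedure was checked on simulated data. ChIP-seq and ATAC-seq data (15 samples and 1 sample) were not analysed here. Alternatives were another pseudocount (5), no filter, 2 other scalings, edgeR, DESeq2, a replicate block, a 2-fold threshold and leaving out each library.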

Additional observations from a re-analysis of the deposited data

Results flagged for a closer look

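The response to TGFβ differed between KO-labelled and WT PDA cells by a test of the difference itself for 5 of 38 members. This share, 13.2%, was below that of all genes tested, 21.8%, and Nop10 alone of the 5 kept its call in every alternative run. The difference was 0.72 for Nop10, 0.54 for Nop16, 0.54 for Wdr12, 0.41 for Nop56 and -0.27 for Polr1a on the log2 scale. Rreb1 had 2886 and 2560.4 under TGFβ, against 2164 and 2195 under SB505124 in KO-labelled cells, and 4293 and 4212 under TGFβ, against 1458 and 1501 under SB505124 in WT cells, a difference of -1.20 between the responses (limma, adjusted p = 0.000933).

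The change over 4 days differed between KO-labelled and WT EBs, by the same kind of test, for 22 of 38 members (57.9%). This is close to the share of all genes tested, 55.7%. Of the 22, 12 were followed by name, most of them because they were called, so that number is no result in itself. The change was higher in KO-labelled cells for Nle1 (1.08), Nhp2 (1.07), Noc2l (0.84), Rrn3 (0.81), Nop10 (0.74), Npm3 (0.73), Npm1 (0.67), Nop56 (0.39) and Dkc1 (0.38), and lower for Nop58 (-0.53), Polr1a (-0.40) and Utp20 (-0.40). The call of Npm1 was lost with quantile normalization (0.13), and those of Nop56 and Utp20 without single libraries. Outside the members it was -1.69 for Myc, 0.76 for Mycn and -1.23 for Rreb1. Rreb1 had 1920.5 and 1512 at day 4, against 2642 and 2830.0 at day 0 in KO-labelled cells, and 1482 and 1586 at day 4, against 1086 and 1019 at day 0 in WT cells (limma, adjusted p = 5e-06).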

How the results depend on the processing

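Of 2655 recomputed values of named genes, 2396 kept their direction and their side of the threshold, 164 lost their call, 37 gained one and 58 changed sign. With libraries rescaled to the same total the median of the members was -0.184 in KO-labelled PDA cells (TGFβ against SB505124), -0.207 and -0.161 for KO-labelled against WT PDA cells under SB505124 and TGFβ, and -0.077 for EBs at day 4, where it turned sign. Quantile normalization gave medians of -0.218, -0.199 and -0.151 for the same PDA comparisons. The members called between labels under TGFβ were 12 (rescaled), 11 (quantile), 8 (edgeR) and 3 (DESeq2), and the PDA interaction had 3 without the filter. Rescaled organoid medians were -0.152 (TGFβ with dox), 0.981 (dox under SB505124) and 0.715 (dox under TGFβ), and a 2-fold threshold left 12 and 2 members with dox. Leaving out single libraries gave 9 to 32 called members in WT and 11 to 24 in KO-labelled PDA cells, 1 to 8 for the interaction, 8 to 16 between labels under SB505124 (median -0.12 to -0.045) and 1 to 13 under TGFβ. The cause was not tested.

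The replicate numbers gave no strong positive pairing of the samples. Correlations of deviations between groups ran from -0.506 to 0.144 over 6 pairs in the PDA table. In the EB table they ran from -0.033 to 0.091 over 6 pairs. The lowest, -0.506, was between WT SB505124 and KO-labelled TGFβ PDA cells, the groups whose replicates stood furthest apart. Genes thus tended to deviate in opposite order in these groups, and what their libraries share was not tested. With the replicate number as a block, 16 members were called in WT PDA cells, 16 in KO-labelled PDA cells, 2 in the interaction and 2 between labels under TGFβ.

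Log2 differences that changed sign had passed no test on the deposited scale, except Npm1 between labels at day 4. Rescaling to the same total gave Polr1a 0.02 in the WT PDA response, Ncl 0.10, Npm1 0.08 and Fbl 0.04 in the KO-labelled PDA response, Rrn3 -0.14 between labels under SB505124 and Polr1b -0.03 and Mycn -0.01 between labels under TGFβ. Rescaling to the same total gave Npm1 0.02 and Polr1a 0.05 in WT EBs over 4 days and Dkc1 -0.04 between labels at day 0. Quantile normalization gave Ncl 0.09 and Npm1 0.07 in the KO-labelled PDA response, Rrn3 -0.13 between labels under SB505124 and Polr1b -0.01 between labels under TGFβ. Quantile normalization gave Npm1 0.00 and Polr1a 0.10 in WT EBs over 4 days, Nop56 0.02 in KO-labelled EBs over 4 days, Ncl -0.16 in the EB interaction, Ncl 0.23 and Dkc1 -0.15 between labels at day 0 and Npm1 0.00 and Fbl -0.01 between labels at day 4. edgeR gave Mycn -0.01 in the PDA interaction and Mycn 0.05 between labels under SB505124. edgeR gave Dkc1 -0.01 between labels at day 0. Leaving out single libraries, in the KO-labelled PDA response Ncl ran -0.12 to 0.10, Npm1 ran -0.17 to 0.10 and Fbl ran -0.19 to 0.05. With 1 library left out at a time, in the PDA interaction Mycn ran -0.38 to 0.98, Rrn3 ran -0.01 to 0.17 and Myc ran -0.38 to 0.00. Leaving out single libraries, between labels under SB505124 Ncl ran -0.17 to 0.12, Rrn3 ran -0.03 to 0.06 and Mycn ran -0.91 to 0.45. With 1 library left out at a time, between labels under TGFβ Mycn ran -0.06 to 0.19, Npm1 ran -0.18 to 0.09 and Dkc1 ran -0.22 to 0.06. Leaving out single libraries, in WT EBs over 4 days Polr1a ran -0.09 to 0.05. With 1 library left out at a time, in KO-labelled EBs over 4 days Mycn ran -0.01 to 0.25, Nop56 ran -0.22 to 0.08, Myc ran -0.29 to 0.03 and Rrn3 ran -0.01 to 0.16. Leaving out single libraries, in the EB interaction Polr1b ran -0.02 to 0.18. With 1 library left out at a time, between labels at day 0 Ncl ran -0.06 to 0.06 and Dkc1 ran -0.02 to 0.04. Leaving out single libraries, between labels at day 4 Polr1a ran -0.07 to 0.07 and Rreb1 ran -0.02 to 0.32.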
